A study of Danio rerio with 12 samples.

Results

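This report describes how gene expression in dnHIF1a zebrafish hearts differed 7 days after amputation. The comparison takes the 3 amputated dnHIF1a arrays minus the 3 unamputated dnHIF1a arrays, which are 6 of the 12 arrays of the series, over every probe set that is not a hybridisation control. Each array was an Affymetrix Zebrafish Genome Array hybridised with RNA from the heart of adult, sexually mature fish. The dnHIF1a fish carry 3 elements, each behind the promoter of cmlc2a (myl7), which is active in heart muscle cells. These are the recombinase Ert2-Cre-Ert2, of the tamoxifen-dependent type, a GFP reporter written LnL:GFP and the dominant negative construct LrL:dnHIF1a. Both dnHIF1a groups carry all of these alleles, and by the labels they differ in amputation alone. The 3 unamputated and 3 amputated WT arrays came from wild-type fish of the AB line and serve as the comparator, so a difference between the responses is a difference between these lines. Whether tamoxifen was given, which background the transgenic line has, whether arrays stand for single animals or pools, and the hour of collection are not stated in the labels. The p-values therefore measure the spread between these samples.

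HIF1a is the oxygen-regulated subunit of a transcription factor that switches on genes of glycolysis, blood vessel growth and iron handling when oxygen is low. A dominant negative form binds its partners without activating those genes. The zebrafish heart regrows muscle after the tip of the ventricle is removed: leukocytes enter the wound, the epicardium and fibroblasts lay down matrix, and heart muscle cells at the border divide.

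Values are the deposited log2 expression values. A difference is a difference of group means in log2 units ± its standard error from the limma fit to all 12 arrays, with 3 arrays per group. A gene is called when its limma p, adjusted by the Benjamini-Hochberg method over 15502 probe sets, is under 0.05. The probe set with the highest mean stands for its gene, which gives 8793 genes. No size is given where a group mean lies under 4. The heart muscle genes myl7 (14.69 to 14.80), cmlc1 (14.05 to 14.25), actc1a (14.61 to 14.67), tnnt2a (13.89 to 13.99) and tnnc1a (11.38 to 11.63) were measured on all 6 dnHIF1a arrays at the values in brackets. The symbols vmhc, tnni1b, myh6, nppa and nppb were not found, and other names of these genes were not searched. Array medians lay between 5.55 and 5.57. The first principal component of the 6 arrays held 57.6% of the variance and put the amputated arrays at 15.32 to 18.61 and the unamputated ones at -16.85 to -17.19. On the second component, with 14.1% of the variance, the unamputated arrays spread from -12.70 for array 3 to 10.62 for array 2. Unamputated dnHIF1a array 3 also lay apart from its group in nfil3-5, sox11b, socs3a, musk and cisha, and where leaving out an array ended or made a dnHIF1a call of a gene named here, the adjusted p without it is given.

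Amputation was followed by higher expression of many matrix, matrix enzyme and leukocyte genes, and clock genes were called in both directions. Of 15502 probe sets 1511 were called (9.75%), 877 higher (5.66%) and 634 lower (4.09%). Of 8793 genes 964 were called (11%), 513 higher (5.83%) and 451 lower (5.13%). The changes were uneven in size: 93 genes rose by at least 1 log2 unit and 17 fell by as much. The median difference of all genes was -0.02. In 2927 genes (33.3%) the amputated and unamputated arrays did not overlap, far more than were called. The amputated arrays lay above in 1286 of these and below in 1641. The median SD over genes was 0.085 on unamputated and 0.0929 on amputated dnHIF1a arrays. The count of lower probe sets was less steady than that of higher ones, at 318 without amputated dnHIF1a array 1, 417 without array 2, 344 without array 3, and 343, 363 and 406 without unamputated array 1, 2 or 3.

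**Figure D1:**
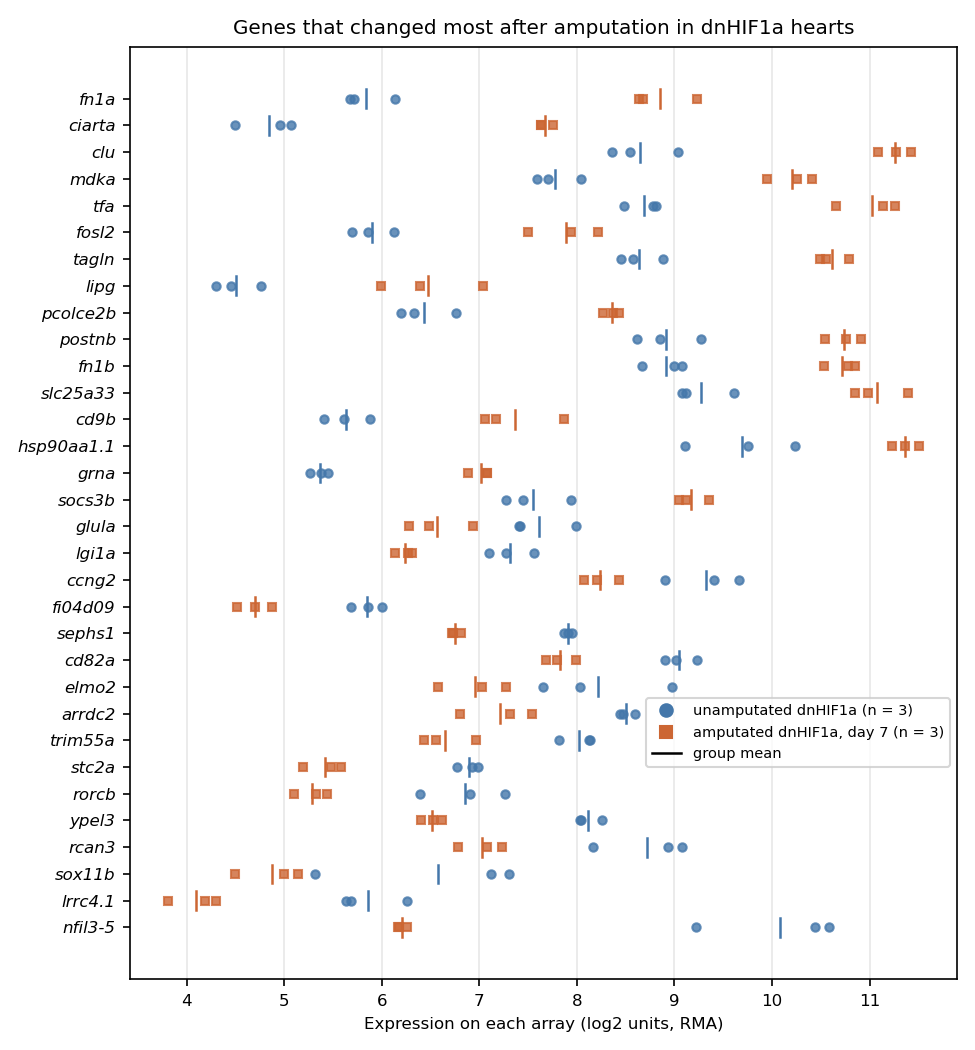
Expression on each dnHIF1a array (x axis, log2 units) of the 16 genes with the largest rise and the 16 with the largest fall among called genes whose groups do not overlap (y axis, ordered by difference). Circles are the 3 unamputated arrays, squares the 3 amputated arrays and vertical bars the group means. The rise of fn1a (3.01) and the fall of nfil3-5 (-3.88) are the widest shifts, and sox11b and nfil3-5 each have 1 unamputated array well below the other two.

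The matrix protein genes held the largest rise. fn1a, which encodes fibronectin, read 6.14, 5.72 and 5.67 on unamputated and 8.68, 8.64 and 9.23 on amputated arrays. This is an 8.04-fold rise (3.01 ± 0.26, adjusted p = 2.2e-05). The genes with the largest rises were chosen among called genes without overlap between the groups. Its paralog fn1b rose 3.5-fold, from 9.08, 8.99 and 8.67 to 10.53, 10.78 and 10.85 (1.81 ± 0.18, adjusted p = 8.19e-05). Besides this one, fn1a has 2 probe sets. The first read 3.83 and 4.02 in the mean of the unamputated and amputated arrays (adjusted p = 0.153) and the second -0.13 (adjusted p = 0.326), so the rise of fn1a rests on 1 of 3 probe sets. postnb, which encodes periostin, a matrix protein of activated fibroblasts, read 8.85, 9.27 and 8.62 before and 10.54, 10.91 and 10.76 after amputation. That is 3.54-fold (1.82 ± 0.23, adjusted p = 0.000391), and a second postnb probe set rose by 1.83. The extracellular matrix list had 33 measured genes, of which 17 rose (5.83% of all genes did) and 0 fell (5.13% of all genes), with a median difference of 0.44 against -0.02 over all genes. Leaving out single arrays gave 15 to 17 higher members. 

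Among collagen, laminin and proteoglycan genes the called rises differed in size. The type I collagen genes col1a2 (9.16, 9.38 and 9.01, then 10.62, 10.60 and 10.71) and col1a1a (10.12, 10.14 and 9.94, then 11.17, 11.24 and 11.23) rose by 1.46 ± 0.14 (adjusted p = 5.97e-05) and 1.15 ± 0.12 (adjusted p = 9.95e-05). All 3 amputated arrays lay above all 3 unamputated ones for both genes. They did so in 1286 of 8793 genes, and the groups did not overlap, in either direction, in 33.3% of all genes. col5a2a, which encodes a chain of type V collagen, rose by 1.12 ± 0.09, adjusted p = 1.55e-05. lamb1a, the gene of a laminin beta chain of basement membranes, read 7.09, 7.24 and 7.12 and then 8.41, 8.53 and 8.46, a rise of 1.32 ± 0.093, adjusted p = 8.98e-06. The proteoglycan gene dcn (decorin) rose by 0.59 ± 0.12 (adjusted p = 0.0081). Of all 21 measured collagen genes 6 rose and 0 fell, and their median was 0.12 (28.6% called in either direction, against 11% of all genes). Second probe sets of col1a1a (1.65) and col1a2 (1.79) rose more than the ones used here.

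Enzymes that cut and mature matrix rose with it. Of 19 measured members of the matrix enzyme list 13 rose and 0 fell (68.4% called, against 11% of all genes), with a median of 0.78. mmp14a, the gene of a membrane-bound protease, read 5.92, 5.88 and 6.01 on unamputated and 7.23, 7.14 and 7.26 on amputated arrays (1.27 ± 0.092, adjusted p = 8.98e-06). Its paralog mmp14b rose by 1.06 ± 0.11 (adjusted p = 6.39e-05) and mmp2, a secreted protease gene, by 0.93 ± 0.11 (adjusted p = 0.000213), from 8.88, 8.93 and 8.65 to 9.67, 9.87 and 9.72. In each of these 3 genes the groups were separate, as they were in 33.3% of all genes. Outside this list pcolce2b, an enhancer of procollagen cleavage, rose 3.8-fold, from 6.33, 6.20 and 6.76 to 8.37, 8.27 and 8.43 (1.93 ± 0.16, adjusted p = 1.76e-05). The collagen isomerase gene ppib read 0.15 ± 0.093, adjusted p = 0.405. The count of higher members depended on single arrays, at 7 without amputated dnHIF1a array 2 or 3 or unamputated array 2, and 8 without unamputated array 1.

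**Figure D2:**
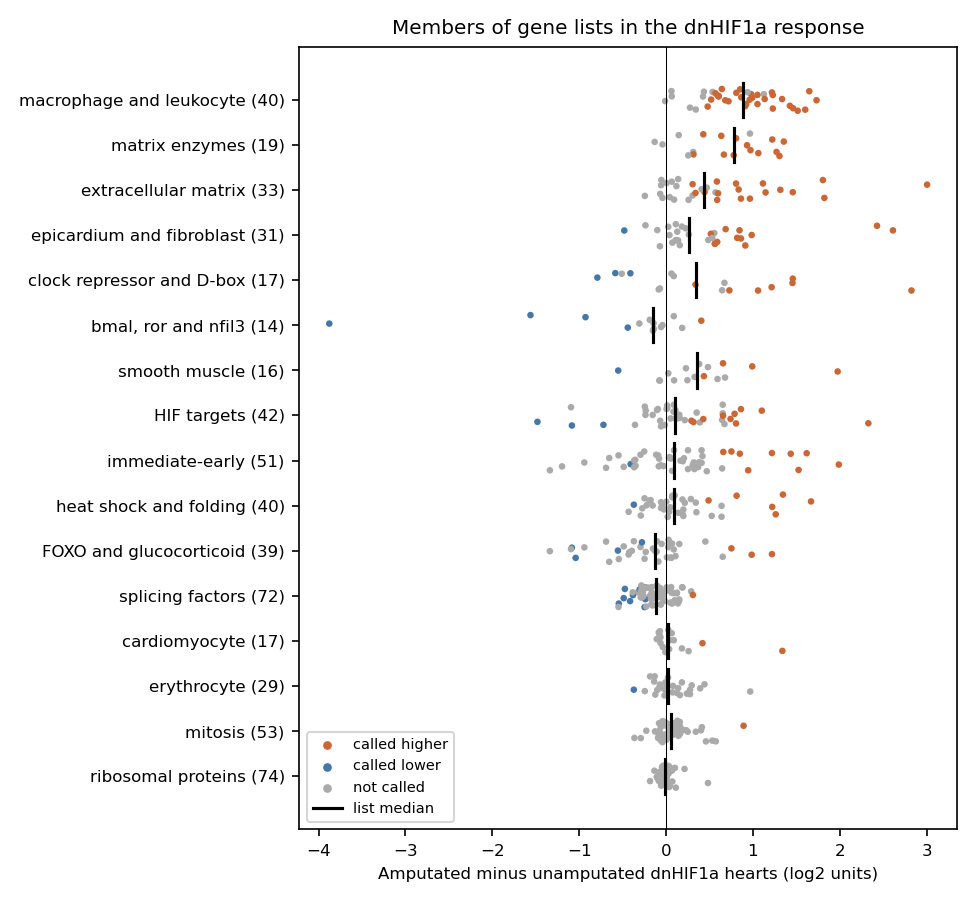
Difference between amputated and unamputated dnHIF1a hearts (x axis, log2 units) for every measured gene of 16 gene lists (y axis, number of measured genes in brackets). Each point is a gene, coloured by its call, and black bars are list medians. The leukocyte list has the highest median (0.89) of the 16 shown and 30 of its 40 members called higher, while the erythrocyte, mitosis and ribosomal protein lists gather around 0.

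Genes of the epicardium and of fibroblasts rose in part. Of 31 measured markers 12 rose and 1 fell (41.9% called, against 11% of all genes), with a median of 0.26. mdka, the gene of the secreted growth factor midkine, read 8.04, 7.70 and 7.59 and then 9.95, 10.26 and 10.41, a 5.39-fold rise (2.43 ± 0.21, adjusted p = 2.46e-05). clu, the gene of the secreted chaperone clusterin, read 9.04, 8.54 and 8.36 and then 11.09, 11.42 and 11.27, which is 6.12-fold (2.61 ± 0.27, adjusted p = 7.52e-05). Both are among the largest rises, which were chosen for groups that do not overlap. In RNA from whole tissue, more or fewer cells of a type and more or less RNA per cell cannot be told apart, which holds for every cell type list here. Also higher were c1qtnf5 (0.91 ± 0.089, adjusted p = 5.97e-05), which encodes a secreted C1q-domain protein, and anxa1a (annexin A1, 0.85 ± 0.088, adjusted p = 9.6e-05). The paralog mdkb was the only member called lower (-0.48 ± 0.11, adjusted p = 0.0154), a call lost without dnHIF1a amputated arrays 1 or 2 or dnHIF1a unamputated array 3 (adjusted p up to 0.0659). tbx18, an epicardial transcription factor gene, read 5.81, 5.62 and 5.82 and then 5.96, 6.05 and 5.92, without a call (0.23 ± 0.10, adjusted p = 0.18).

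Retinoic acid is made in the activated epicardium and endocardium of the injured fish heart. Its synthesis gene aldh1a2 read 9.22, 9.52 and 9.65 on unamputated and 10.35, 10.34 and 10.66 on amputated arrays, all 3 higher after amputation (0.99 ± 0.21, adjusted p = 0.0104). The amputated arrays lay above in this way in 1286 of 8793 genes. dhrs3a, which encodes a retinal reductase, rose from 5.28, 5.20 and 5.47 to 6.64, 6.71 and 6.41 (1.27 ± 0.17, adjusted p = 0.000637). The retinol carrier gene rbp4 fell by 0.49 ± 0.10 (adjusted p = 0.0106), from 12.15, 12.49 and 12.10 to 11.72, 11.77 and 11.78. Of 21 measured retinoic acid genes 4 rose and 1 fell (23.8% called, against 11% of all genes). The higher count was 2 without amputated dnHIF1a array 3 or any 1 unamputated dnHIF1a array. A further call, aldh8a1 (0.47 ± 0.13, adjusted p = 0.0366), was lost without dnHIF1a amputated arrays 1 or 3 or dnHIF1a unamputated arrays 1, 2 or 3 (adjusted p up to 0.146).

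Some smooth muscle and keratin genes rose, while the wider epithelial list was called at a share near that of all genes. tagln, the gene of the actin-binding protein transgelin, read 8.57, 8.45 and 8.88 and then 10.79, 10.55 and 10.49, 3.94-fold higher (1.98 ± 0.22, adjusted p = 0.000182). actn1, an actin crosslinker gene, rose by 0.99 ± 0.15 (adjusted p = 0.00125), while smtnb, a smoothelin gene, fell from 9.16, 9.51 and 9.21 to 8.85, 8.62 and 8.76 (-0.55 ± 0.10, adjusted p = 0.00433). Among 16 smooth muscle markers 4 rose and 1 fell (31.25% called, against 11% of all genes), with a median of 0.36. The higher count was 2 without unamputated dnHIF1a array 1 and 7 without unamputated WT array 1. myl9b, a myosin light chain gene of smooth muscle, was not called (-0.077 ± 0.21, adjusted p = 0.879). Of 13 keratin genes 4 rose and 0 fell (30.8% called). Among them were krt18b (1.22 ± 0.18, adjusted p = 0.00109), which read 7.75, 7.79 and 7.83 and then 9.03, 8.80 and 9.21, and krt15 (0.82 ± 0.12, adjusted p = 0.000937). krt8, their partner in simple epithelia, read 0.52 ± 0.13, adjusted p = 0.0293, a call lost without dnHIF1a amputated arrays 1, 2 or 3 or dnHIF1a unamputated arrays 1, 2 or 3 (adjusted p up to 0.105). The wider epithelial list had 5 of 40 members higher and 0 lower (12.5% called, near the 11% of all genes), with a median of 0.04.

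Leukocyte genes formed the list with the most members called. Of 40 measured macrophage and leukocyte genes 30 rose and 0 fell (75% called, against 11% of all genes), with a median of 0.89. When single arrays were left out 27 to 33 rose. grna, which encodes a granulin of phagocytes, read 5.45, 5.26 and 5.38 and then 7.08, 6.88 and 7.08, 3.14-fold higher (1.65 ± 0.094, adjusted p = 2.79e-06). spi1b, the myeloid transcription factor gene also known as PU.1, rose from 6.39, 6.38 and 6.29 to 7.67, 7.71 and 7.96 (1.43 ± 0.13, adjusted p = 3.72e-05). ptprc, the pan-leukocyte CD45 gene, rose from 6.01, 5.97 and 5.66 to 7.16, 6.82 and 7.07 (1.14 ± 0.11, adjusted p = 5.19e-05). In spi1b and ptprc the groups were also separate, as they were in 33.3% of all genes. cd63, a lysosomal tetraspanin gene, read 0.57 ± 0.16, adjusted p = 0.0448, a call lost without WT amputated arrays 1 or 2, dnHIF1a amputated arrays 1, 2 or 3 or dnHIF1a unamputated arrays 1, 2 or 3 (adjusted p up to 0.167). cd74a, the invariant chain of class II antigen presentation, missed the threshold (0.43 ± 0.13, adjusted p = 0.0527) but was called higher without WT amputated array 3 (adjusted p = 0.0411), WT unamputated array 1 (adjusted p = 0.0404) or dnHIF1a unamputated array 2 (adjusted p = 0.0298). Its paralog cd74b passed the threshold (0.64 ± 0.13, adjusted p = 0.00877). 

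The leukocyte list was also low at the start. Its mean level over 40 genes was 7.13, 7.17 and 7.04 on unamputated dnHIF1a arrays and 8.07, 7.80 and 8.05 on amputated ones. On WT arrays it was 7.90, 7.82 and 7.74 before and 8.34, 8.51 and 8.57 after amputation. The unamputated dnHIF1a arrays therefore lay below all other arrays, and the amputated dnHIF1a arrays spanned 7.80 to 8.07, a range that overlaps the 7.74 to 7.90 of unamputated WT. In WT 27 of the 40 genes rose (11.7% of all genes did), with a median of 0.61. The difference of the responses was called in 2 of the 40 genes, both higher in dnHIF1a (0.989% of all genes were).

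Other blood cells gave few calls. Of neutrophil genes 12.5% were called, near the 11% of all genes, and of erythrocyte genes 3.45%. Among 8 neutrophil genes only mmp9 was called (1.31 ± 0.35, adjusted p = 0.0364), and the call was lost without dnHIF1a amputated arrays 1, 2 or 3 or dnHIF1a unamputated arrays 1, 2 or 3 (adjusted p up to 0.114). srgn (-0.0067 ± 0.12, adjusted p = 0.985) and cfd (-0.40 ± 0.17, adjusted p = 0.191), the lowest of these 8, were not called. The median of the 8 was nevertheless 0.29. In 3 of them every amputated array lay above every unamputated one, and in 0 below. Averaged over the 8 genes, unamputated dnHIF1a arrays stood at 7.86, 7.79 and 7.62, and every amputated one higher, at 8.13, 8.05 and 8.17. Unamputated WT arrays, at 8.445, 8.212 and 8.426, exceeded every dnHIF1a array. Of 9 lymphocyte and 10 thrombocyte genes 0 were called. Of 29 erythrocyte genes 0 rose and 1 fell, with a median of 0.02. The adult globin gene hbba2 read 11.78, 13.56 and 12.71 on unamputated and 12.85, 12.59 and 13.79 on amputated arrays, and hbaa1 14.07, 14.62 and 14.33 and 14.49, 14.41 and 14.84. The groups overlapped for both, and the spread among unamputated arrays was wider than the shift. The hbaa1 values also lie close to the array maxima of 14.92 to 15.01, so they do not show that it was stable. The single call, alad, a haem synthesis gene, read -0.37 ± 0.089, adjusted p = 0.0209 and was lost without dnHIF1a amputated arrays 1 or 2 or dnHIF1a unamputated arrays 1 or 2 (adjusted p up to 0.0833). The erythrocyte list mean was 7.35, 7.78 and 7.54 on unamputated dnHIF1a arrays and 7.61, 7.31 and 7.97 on amputated ones, but rose from 7.32, 7.41 and 7.14 to 8.34, 7.68 and 8.34 in WT.

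**Figure D3:**
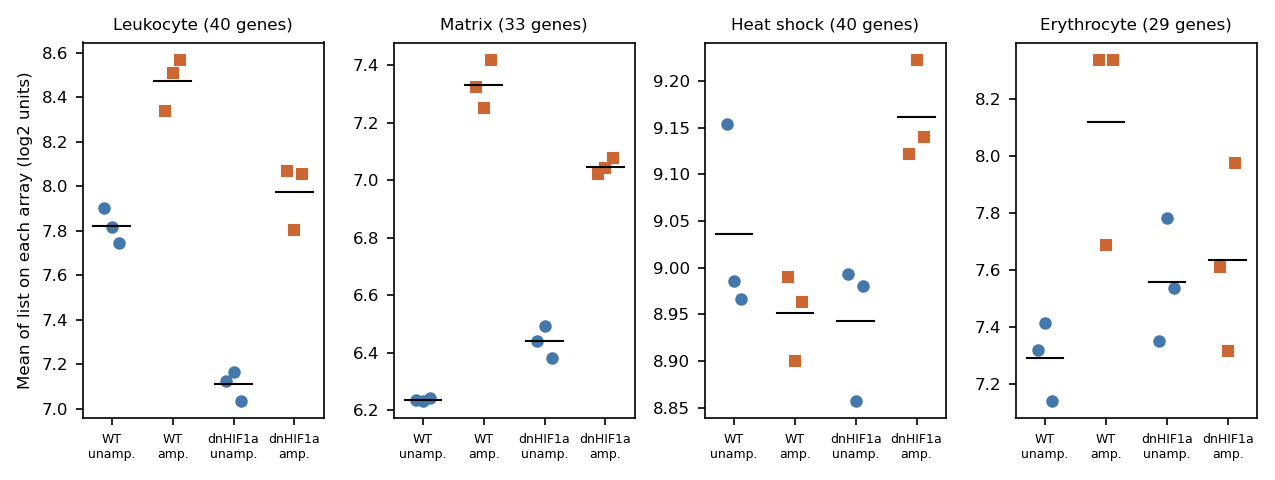
Mean log2 expression of 4 gene lists on each of the 12 arrays (y axis, log2 units, separate scale in each panel), by group (x axis, 3 arrays each). Circles are unamputated arrays, squares amputated arrays and bars group means. The leukocyte and matrix lists are higher after amputation in both lines, with the unamputated dnHIF1a leukocyte values (7.04 to 7.17) lowest, while the erythrocyte list separates the WT groups and overlaps in dnHIF1a.

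Circadian genes gave the largest fall and the second largest rise of the response. The vertebrate clock runs on bmal and clock activators that drive period, cryptochrome and other repressors, while ROR and NFIL3 factors act on further clock promoters. nfil3-5, a bZIP factor gene, read 10.58, 10.44 and 9.22 on unamputated and 6.18, 6.26 and 6.17 on amputated arrays. It fell by 3.88 ± 0.31 (adjusted p = 1.49e-05). The amputated arrays were nearly level with each other, while unamputated array 3 lay well below the other two and still far above every amputated array. bmal1a fell from 6.53, 6.64 and 6.47 to 5.68, 5.53 and 5.65 (-0.93 ± 0.084, adjusted p = 3.72e-05) and the nuclear receptor gene rorcb from 7.26, 6.90 and 6.39 to 5.33, 5.44 and 5.10 (-1.56 ± 0.18, adjusted p = 0.000213). Of 14 genes in this bmal, ror and nfil3 list 4 fell and 1, the clock kinase gene csnk1da, rose (0.41 ± 0.074, adjusted p = 0.00433), with a median of -0.15. Called members made up 35.7% of this list, against 11% of all genes. A second csnk1da probe set, at 6.03 and 6.24, was not called (0.21, adjusted p = 0.266). The paralog nfil3-6 was not called and overlapped between the groups (9.66, 9.77 and 8.93 and 9.24, 9.29 and 9.40).

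Among the repressor and D-box genes, ciarta, a repressor of the clock activators, rose 7.09-fold. It read 5.07, 4.96 and 4.50 on unamputated and 7.63, 7.75 and 7.63 on amputated arrays (2.83 ± 0.14, adjusted p = 1.19e-06). per2, a light-responsive period gene in fish, rose from 8.19, 8.20 and 8.08 to 9.47, 9.24 and 9.41 (1.22 ± 0.10, adjusted p = 1.49e-05), although its second probe set, at 5.69 and 5.95, was not called (adjusted p = 0.107). cry-dash, a photolyase-family gene, rose from 5.0, 4.96 and 4.78 to 6.29, 6.29 and 6.53 (1.46 ± 0.14, adjusted p = 6.32e-05), and tefa, a D-box activator gene, by 0.73 ± 0.14 (adjusted p = 0.00651). The cryptochrome family gene cry4 went the other way, from 6.90, 7.20 and 6.91 to 6.09, 6.31 and 6.24 (-0.79 ± 0.10, adjusted p = 0.000527), as did cry3b (-0.58 ± 0.09, adjusted p = 0.00153). cry1a was called lower (-0.41 ± 0.10, adjusted p = 0.0251), a call lost without dnHIF1a amputated arrays 1 or 2 or dnHIF1a unamputated arrays 2 or 3 (adjusted p up to 0.101). In all, 7 of 17 members rose and 3 fell (58.8% called, against 11% of all genes), with a median of 0.34. Without single arrays 6 to 8 rose and 2 to 3 fell. bhlhe40, a repressor gene that HIF also drives, was not called (0.65 ± 0.21, adjusted p = 0.0753) but was called higher when WT unamputated array 2 was left out (adjusted p = 0.0457) or dnHIF1a unamputated array 3 was left out (adjusted p = 0.0137).

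The same clock genes shifted in WT: nfil3-5 by -3.66 ± 0.31, bmal1a by -1.19 ± 0.084, rorcb by -1.23 ± 0.18, ciarta by 4.08 ± 0.14 and per2 by 0.52 ± 0.10. The rise of ciarta was smaller in dnHIF1a than in WT (difference -1.26 ± 0.20, adjusted p = 0.0101). That of per2 was larger in dnHIF1a (0.69 ± 0.14, adjusted p = 0.0229), a call lost when WT amputated array 1 was left out (adjusted p = 0.0575) or dnHIF1a amputated array 1 was left out (adjusted p = 0.0633). Since no hour of collection is given, amputation and the time of day of collection cannot be told apart for these genes.

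**Figure D4:**
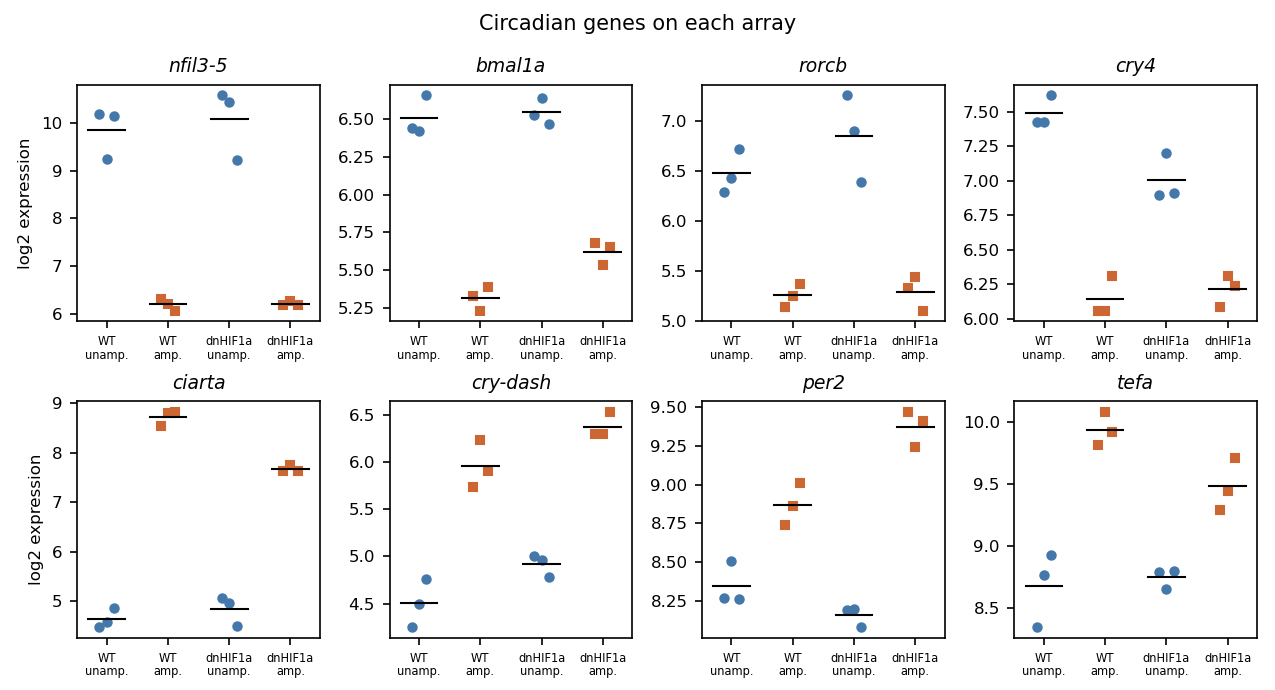
Log2 expression (y axis, separate scale in each panel) of 8 circadian genes on the 12 arrays, by group (x axis, 3 arrays each). Circles are unamputated arrays, squares amputated arrays and bars group means. In dnHIF1a nfil3-5, bmal1a, rorcb and cry4 are lower on every amputated array and ciarta, cry-dash, per2 and tefa higher, and the WT arrays shift in the same directions.

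Some targets of HIF itself rose. Of 42 measured HIF targets outside glycolysis 10 rose (5.83% of all genes did) and 3 fell (5.13% of all genes), with a median of 0.11. The largest rise was that of tfa, the gene of the iron carrier transferrin, from 8.81, 8.78 and 8.48 to 10.66, 11.26 and 11.14, 5.03-fold (2.33 ± 0.17, adjusted p = 8.98e-06). cxcl12a, a chemokine gene, rose from 8.09, 8.17 and 8.0 to 8.78, 9.11 and 8.96 (0.86 ± 0.13, adjusted p = 0.0014), and wsb1, which encodes a ubiquitin ligase subunit, by 0.79 ± 0.085 (adjusted p = 0.00012). stc2a, the gene of the secreted glycoprotein stanniocalcin, fell from 6.77, 6.93 and 6.99 to 5.19, 5.48 and 5.58 (-1.48 ± 0.14, adjusted p = 5.12e-05). bnip3, a mitophagy receptor gene, was called lower (-0.72 ± 0.18, adjusted p = 0.0244), a call lost without dnHIF1a amputated array 1 or dnHIF1a unamputated arrays 1 or 3 (adjusted p up to 0.103). vegfaa, the blood vessel growth factor gene, read 7.84, 7.85 and 7.60 and then 8.64, 8.70 and 7.92 (0.66 ± 0.19, adjusted p = 0.0476), a call lost without WT amputated arrays 1 or 3, WT unamputated array 1, dnHIF1a amputated arrays 1 or 2 or dnHIF1a unamputated arrays 1, 2 or 3 (adjusted p up to 0.172). The higher count was 5 without amputated dnHIF1a array 1 or 2 or unamputated array 1 or 2. In WT 17 of the 42 rose (11.7% of all genes did) and 4 fell (14.5%), with a median of 0.22. The difference of the responses was called in 6, all lower in dnHIF1a (1.6% of all genes were), while its median over the list was 0.08. For tfa the rise was smaller in dnHIF1a than in WT (difference -1.54 ± 0.24, adjusted p = 0.00982). 

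The genes of 3 HIF alpha subunits were not called. hif1ab, whose probe set need not share sequence with the transgene and so does not check it, read 9.61, 9.39 and 9.58 and then 9.57, 9.56 and 9.62 (0.057 ± 0.18, adjusted p = 0.899). Neither HIF2a gene was called, with -0.027 ± 0.087, adjusted p = 0.903 for epas1a and -0.22 ± 0.11, adjusted p = 0.238 for epas1b, nor was the oxygen sensor gene egln3 (0.15 ± 0.22, adjusted p = 0.76). Of 36 glycolysis genes 4 rose (5.83% of all genes did) and 0 fell (5.13% of all genes), with a median of 0.04. The share called in either direction was near the 11% of all genes. aldocb, an aldolase gene, rose from 9.08, 8.88 and 9.01 to 9.92, 9.84 and 9.70 (0.83 ± 0.10, adjusted p = 0.000213), and ldhbb, a lactate dehydrogenase gene, from 5.12, 5.09 and 4.65 to 6.17, 5.71 and 5.87 (0.96 ± 0.15, adjusted p = 0.00191). pgam1a, a phosphoglycerate mutase gene, was called higher (0.41 ± 0.10, adjusted p = 0.0253), a call lost without dnHIF1a amputated arrays 1, 2 or 3 or dnHIF1a unamputated arrays 1, 2 or 3 (adjusted p up to 0.0991). Neither gapdh (-0.13 ± 0.069, adjusted p = 0.316) nor aldoaa (-0.11 ± 0.059, adjusted p = 0.303) was called. The difference of the responses was called in 4 of the 36, all higher in dnHIF1a (0.989% of all genes were), among them aldocb (1.01 ± 0.14, adjusted p = 0.00462) and ldhbb (1.16 ± 0.22, adjusted p = 0.0194). The latter call was lost when WT amputated array 1 was left out (adjusted p = 0.0553) or dnHIF1a amputated array 1 was left out (adjusted p = 0.0514). The count of 4 higher genes was 2 without amputated dnHIF1a array 1 or 2 or any 1 unamputated dnHIF1a array.

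Some immediate-early genes also rose. Of 51 measured immediate-early genes 10 rose and 1 fell (21.6% called, against 11% of all genes), with a median of 0.09. fosl2, an AP-1 factor gene, rose 3.97-fold, from 6.13, 5.70 and 5.86 to 7.94, 8.22 and 7.50 (1.99 ± 0.31, adjusted p = 0.00155), and its other 2 probe sets rose by 1.58 and 1.48. junba, another AP-1 gene, rose from 7.29, 7.64 and 7.56 to 9.06, 9.04 and 8.97 (1.53 ± 0.19, adjusted p = 0.000361), ier5l by 1.44 ± 0.19 (adjusted p = 0.00048) and zfp36l1a, an mRNA decay factor gene, by 0.66 ± 0.079 (adjusted p = 0.000267). The count of lower members was 5 without unamputated dnHIF1a array 3 and 0 without any other single dnHIF1a array. Of 16 cytokine feedback genes 2 rose and 0 fell (12.5% called, near the 11% of all genes), with a median of -0.0067. socs3b, an inhibitor of cytokine receptor signalling, rose from 7.27, 7.45 and 7.94 to 9.05, 9.12 and 9.35 (1.62 ± 0.34, adjusted p = 0.0101). Its paralog socs3a, in contrast, was scattered, with 11.67, 11.49 and 9.82 on unamputated and 11, 9.89 and 10.99 on amputated arrays (-0.37 ± 0.51, adjusted p = 0.748). The phosphatase gene ptpn6, active in blood cells, rose by 1.05 ± 0.12 (adjusted p = 0.000186).

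Heat shock genes rose in a few members. Of 40 measured genes 6 rose (5.83% of all genes did) and 1 fell (5.13% of all genes), with a median of 0.09. hsp90aa1.1, an inducible Hsp90 gene that skeletal muscle of fish uses to fold myosin, rose 3.18-fold, from 9.75, 9.11 and 10.23 to 11.36, 11.51 and 11.23 (1.67 ± 0.25, adjusted p = 0.00131). hsf2, the gene of a heat shock factor, rose from 6.32, 5.95 and 6.60 to 7.73, 7.63 and 7.55 (1.35 ± 0.17, adjusted p = 0.00043), and hspb8, a small heat shock protein gene, from 9.26, 8.91 and 9.05 to 9.96, 9.92 and 9.78 (0.81 ± 0.10, adjusted p = 0.00036). fkbp4, a co-chaperone of steroid receptors, was called lower (-0.37 ± 0.079, adjusted p = 0.0115), a call lost when dnHIF1a amputated array 1 was left out (adjusted p = 0.0509). The chaperone genes hsp90ab1 (0.037 ± 0.085, adjusted p = 0.86) and hspb1 (0.073 ± 0.091, adjusted p = 0.709) were not called. In WT 4 of the 40 rose and 17 fell (14.5% of all genes did), with a median of -0.26, and the difference was called in 6, all higher in dnHIF1a (0.989% of all genes were). 

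Genes driven by FOXO factors and glucocorticoids were called in both directions. Of 39 members 3 rose and 4 fell (17.9% called, against 11% of all genes), with a median of -0.13 against -0.02 over all genes. Those that rose were cebpb, a bZIP factor gene (7.29, 7.04 and 6.56, then 8.14, 8.19 and 8.22; 1.22 ± 0.21, adjusted p = 0.00344), the kinase gene sgk1 (0.75 ± 0.13, adjusted p = 0.00386) and the autophagy kinase gene ulk1b (0.99 ± 0.19, adjusted p = 0.00625). ccng2, the gene of cyclin G2, fell from 9.40, 9.66 and 8.90 to 8.21, 8.43 and 8.07 (-1.08 ± 0.22, adjusted p = 0.0085), and glula, a glutamine synthetase gene, from 7.42, 7.99 and 7.41 to 6.48, 6.28 and 6.94 (-1.04 ± 0.18, adjusted p = 0.0034). nr3c1, the glucocorticoid receptor gene, was called lower (-0.28 ± 0.064, adjusted p = 0.0175), a call lost without dnHIF1a amputated array 1 or dnHIF1a unamputated arrays 1 or 2 (adjusted p up to 0.069), and its other probe sets were not called (-0.10, adjusted p = 0.473, and -0.21, adjusted p = 0.104). This list depended on unamputated dnHIF1a array 3: its mean was 7.65, 7.71 and 7.34 on the unamputated arrays and 7.38, 7.29 and 7.48 on the amputated ones, and without array 3 the lower count was 11. The count was 2 without amputated array 1 or unamputated array 2 and 7 without unamputated WT array 1. In WT 16 of the 39 rose (11.7% of all genes did) and 1 fell, with a median of 0.46. The difference of the responses was called in 6, all lower in dnHIF1a (1.6% of all genes were).

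Muscle protein turnover genes included several falls. trim55a, a muscle ubiquitin ligase gene, fell from 8.13, 8.12 and 7.82 to 6.56, 6.97 and 6.43 (-1.37 ± 0.14, adjusted p = 9.59e-05), and the ubiquitin gene ubb from 13.04, 13.16 and 12.89 to 12.06, 12.17 and 12.27 (-0.86 ± 0.10, adjusted p = 0.000205). fbxo32, the gene of the muscle ubiquitin ligase atrogin-1, was called lower (-0.55 ± 0.15, adjusted p = 0.0339), a call lost without dnHIF1a amputated arrays 1 or 3 or dnHIF1a unamputated arrays 1 or 2 (adjusted p up to 0.133). trim55b was called the other way (0.48 ± 0.12, adjusted p = 0.0243), and that call was lost without dnHIF1a amputated arrays 1 or 2 or dnHIF1a unamputated arrays 1 or 2 (adjusted p up to 0.0935). Of 13 genes on this list 3 fell and 1 rose (30.8% called, against 11% of all genes).

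Heart muscle genes were called at a share near that of all genes. Of 17 cardiomyocyte genes 2 rose and 0 fell (11.8% called, against 11% of all genes), with a median of 0.03. myh7, a cardiac myosin heavy chain gene, read 11.22, 10.11 and 9.87 on unamputated and 11.65, 11.74 and 11.83 on amputated arrays (1.34 ± 0.30, adjusted p = 0.0132), and its call was lost when dnHIF1a unamputated array 2 was left out (adjusted p = 0.0567) or dnHIF1a unamputated array 3 was left out (adjusted p = 0.0517). ttn.2, a titin gene, rose from 12.42, 12.39 and 12.21 to 12.77, 12.83 and 12.68 (0.42 ± 0.081, adjusted p = 0.00637), as did 1 of its 3 other probe sets (0.85, adjusted p = 0.003). myl7 read -0.063 ± 0.061, adjusted p = 0.608, but its values of 14.69 to 14.80 lie close to the array maxima of 14.92 to 15.01, so they do not show that it was stable. acta1a, a skeletal muscle actin gene, rose from 11.27, 11.47 and 11.34 to 12.95, 12.81 and 12.60 (1.43 ± 0.21, adjusted p = 0.00126). It was the only one of 32 skeletal muscle genes called higher, with 1 called lower (6.25% called). The mean of that list was 6.08, 6.05 and 6.10 on unamputated and 6.22, 6.10 and 6.89 on amputated dnHIF1a arrays, so amputated array 3 stood apart, and WT amputated array 3 read 6.61. acta1a was lowest on array 3 among the amputated arrays, while pvalb2, the parvalbumin gene with the largest difference of the list, read 5.91, 5.40 and 9.41 on the amputated arrays and was not called (1.57 ± 0.76, adjusted p = 0.243). Among ion handling genes, the connexin 43 gene gja1b rose from 6.65, 6.39 and 6.52 to 7.61, 7.51 and 7.38 (0.98 ± 0.16, adjusted p = 0.00202) and tmem38a, a cation channel gene of the sarcoplasmic reticulum, was called lower (-0.49 ± 0.11, adjusted p = 0.0153), a call lost without dnHIF1a amputated arrays 1 or 3 or dnHIF1a unamputated array 2 (adjusted p up to 0.0644). The calcium pump gene atp2a2a was not called (0.037 ± 0.083, adjusted p = 0.857). Of the cardiac transcription factor genes, gata4 (-0.11 ± 0.079, adjusted p = 0.456), gata5 (0.097 ± 0.10, adjusted p = 0.641) and hand2 (0.24 ± 0.14, adjusted p = 0.346) were not called, though hand2 was called higher when dnHIF1a unamputated array 3 was left out (adjusted p = 0.0445). gata6 was called (0.43 ± 0.12, adjusted p = 0.0374), a call lost without WT amputated array 1, dnHIF1a amputated arrays 2 or 3 or dnHIF1a unamputated arrays 2 or 3 (adjusted p up to 0.149).

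Cell cycle genes gave almost no calls at day 7. Of 53 mitosis genes 1 rose and 0 fell, and of 47 DNA replication genes 0 rose and 2 fell, with medians of 0.06 and -0.01. These are 1.89% and 4.26% called, against 11% of all genes. The mitosis list mean was 5.38 to 5.58 on the dnHIF1a arrays, near the array medians of 5.55 to 5.57. The unamputated dnHIF1a mean lay under 4 for 9 of the 53. Such low signal limits what the few mitosis calls can show. pcna, the replication clamp gene, read 9.34, 9.44 and 9.59 and then 9.83, 9.53 and 9.44, with overlapping groups (0.14 ± 0.25, adjusted p = 0.811). The mitosis call, prc1b (0.89 ± 0.23, adjusted p = 0.0277), was lost without dnHIF1a amputated arrays 1 or 2 or dnHIF1a unamputated arrays 1, 2 or 3 (adjusted p up to 0.114), and rfc1, a clamp loader subunit gene, fell by 0.44 ± 0.08 (adjusted p = 0.00464). In a fit to the 6 dnHIF1a arrays alone, 5 mitosis genes were called higher and 2 lower, and 5 DNA replication genes were called higher. That fit called more of all 15502 probe sets as well, 1116 higher and 832 lower against 877 and 634 in the main fit.

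Energy and protein synthesis genes were close to the median of all genes. Of 76 oxidative phosphorylation genes 2 rose and 3 fell (6.58% called, against 11% of all genes, median -0.04). In WT 3 were higher (11.7% of all genes were) and 24 lower (14.5% of all genes). The cytochrome oxidase subunit gene cox5ba rose from 10.07, 9.91 and 10.11 to 10.92, 10.68 and 10.86 (0.79 ± 0.12, adjusted p = 0.00153). The citrate synthase gene cs was the only call among 34 tricarboxylic acid cycle genes (-0.61 ± 0.14, adjusted p = 0.0153), and was lost without dnHIF1a amputated arrays 1 or 3 or dnHIF1a unamputated array 2 (adjusted p up to 0.0684). Of 33 fatty acid oxidation genes 1 was called and of 74 cytosolic ribosomal protein genes 0, for example rplp0 (0.063 ± 0.064, adjusted p = 0.63). Among 72 splicing factor genes 10 fell and 1 rose (15.3% called), with a median of -0.12. snrpd3l, the gene of a core spliceosome protein, fell from 8.40, 8.36 and 8.40 to 7.92, 7.96 and 7.86 (-0.47 ± 0.09, adjusted p = 0.00596). The lower splicing count was 4 without amputated dnHIF1a array 1 or unamputated array 1, 2 without amputated array 2 or unamputated array 2, 1 without amputated array 3 and 3 without unamputated array 3. Of 77 translation factor and tRNA synthetase genes 7 fell and 1 rose (10.4% called). eif1axb, an initiation factor gene, fell from 10.63, 10.59 and 10.64 to 10.19, 10.11 and 10.20 (-0.45 ± 0.068, adjusted p = 0.00127), while its other probe sets (-0.37, adjusted p = 0.0508, and -0.26, adjusted p = 0.0666) were not called. The lower count was 2 without amputated array 1 or unamputated array 1 or 3 and 4 without amputated array 2 or 3.

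Transporters and membrane proteins included some of the larger changes. slc25a33, a mitochondrial nucleotide carrier gene, rose 3.49-fold, from 9.08, 9.61 and 9.12 to 11.39, 10.98 and 10.85 (1.80 ± 0.19, adjusted p = 9.12e-05). The amino acid transporter genes slc43a1a (1.49 ± 0.15, adjusted p = 7.42e-05) and slc38a5b (1.00 ± 0.11, adjusted p = 0.000143) rose too, and the zinc transporter gene slc39a6 fell by 0.64 ± 0.09 (adjusted p = 0.00104). Of 136 solute carrier genes 13 rose and 7 fell (14.7% called, against 11% of all genes), and the counts were 6 and 3 without amputated dnHIF1a array 1. The lower count was also 3 without unamputated array 1 or 2. lipg, the gene of endothelial lipase, rose 3.91-fold, from 4.76, 4.46 and 4.30 to 5.99, 7.04 and 6.39 (1.97 ± 0.22, adjusted p = 0.000159). The tetraspanin gene cd9b rose from 5.61, 5.41 and 5.88 to 7.87, 7.06 and 7.17 (1.73 ± 0.19, adjusted p = 0.000116), and another tetraspanin gene, cd82a, fell from 9.23, 9.02 and 8.90 to 7.80, 7.99 and 7.68 (-1.23 ± 0.16, adjusted p = 0.000448). itga5, the fibronectin receptor subunit gene, rose from 5.49, 5.06 and 5.46 to 6.37, 6.71 and 6.71 (1.26 ± 0.12, adjusted p = 5.12e-05), and its response was larger than in WT (0.98 ± 0.17, adjusted p = 0.0144).

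The remaining genes with the largest falls have varied roles. lrrc4.1, a leucine-rich repeat membrane protein gene, read 5.63, 6.26 and 5.69 on unamputated and 3.81, 4.30 and 4.19 on amputated arrays (-1.76 ± 0.16, adjusted p = 3.72e-05). rcan3, a regulator of calcineurin, fell from 8.93, 9.08 and 8.16 to 6.78, 7.23 and 7.08 (-1.69 ± 0.23, adjusted p = 0.000588), and ypel3, a growth-inhibiting gene in mammals, from 8.26, 8.03 and 8.04 to 6.40, 6.53 and 6.62 (-1.59 ± 0.18, adjusted p = 0.000185). The genes with the largest falls were chosen among called genes without overlap, so the separate groups of these 3 follow from the choice. arrdc2, an arrestin-domain gene, fell by 1.29 ± 0.18 (adjusted p = 0.000806), but a second arrdc2 probe set with means of 4.62 and 4.52 was not called (-0.10, adjusted p = 0.593). sephs1, a selenophosphate synthetase homolog, fell from 7.91, 7.95 and 7.87 to 6.73, 6.72 and 6.81 (-1.16 ± 0.07, adjusted p = 4.14e-06). lgi1a fell by 1.07 ± 0.13 and fi04d09 by 1.15 ± 0.11. sox11b, a SoxC transcription factor gene, read 7.30, 7.12 and 5.32 and then 5.0, 4.50 and 5.14 (-1.70 ± 0.40, adjusted p = 0.0187), a call lost without dnHIF1a amputated arrays 1 or 2 or dnHIF1a unamputated arrays 1 or 2 (adjusted p up to 0.0788). elmo2, a partner of Rac activators in cell migration, read -1.26 ± 0.27, adjusted p = 0.0118, and its call was lost when dnHIF1a amputated array 1 was left out (adjusted p = 0.0567). Of the other sox11b probe sets the first was called lower (-1.80, adjusted p = 0.0351) and the second was not (-0.37, adjusted p = 0.133).

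Growth factor, complement and p53 genes were called at shares not far from that of all genes (11%). Of 77 growth factor and receptor signal genes 7 rose and 2 fell (11.7% called), with a median of 0.04. The Wnt antagonist homologs dkk3b (7.10, 7.23 and 7.31, then 8.09, 8.08 and 8.30; 0.94 ± 0.10, adjusted p = 0.000159) and dkk1b (0.46 ± 0.067, adjusted p = 0.000937) rose, and the lower calls were mdkb and igfbp2a, an IGF-binding protein gene (-0.73 ± 0.19, adjusted p = 0.0291). That last call was lost without dnHIF1a amputated arrays 1, 2 or 3 or dnHIF1a unamputated arrays 1 or 2 (adjusted p up to 0.101). Of 28 complement and acute phase genes 4 rose and 0 fell (14.3% called), led after clu and tfa by the terminal complement gene c6.2, from 10.47, 10.13 and 10.16 to 11.28, 11.34 and 11.51 (1.12 ± 0.14, adjusted p = 0.000372). Of 34 p53 and apoptosis genes 3 rose and 1 fell (11.8% called). phlda3, a p53 target gene, rose from 5.55, 5.69 and 5.96 to 6.72, 6.74 and 6.65 (0.97 ± 0.17, adjusted p = 0.00294), and baxa, the gene of the apoptosis effector Bax, from 7.35, 7.51 and 7.55 to 8.13, 7.96 and 7.96 (0.55 ± 0.087, adjusted p = 0.0018). atf4a, a stress-response factor gene, rose by 0.44 ± 0.089 (adjusted p = 0.00799), while sec11a, a signal peptidase subunit gene, fell from 9.10, 9.09 and 9.12 to 8.65, 8.64 and 8.64 (-0.46 ± 0.072, adjusted p = 0.00167). Among 53 growth and polyamine genes 5 rose and 3 fell, with mthfd2, a mitochondrial folate enzyme gene, rising by 0.77 ± 0.15 (adjusted p = 0.00661).

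Set against WT, fewer genes were called in dnHIF1a when all arrays were fitted together. In WT 2304 genes were called (26.2%, and 22.8% of probe sets), 1028 higher and 1276 lower. The gap depended on the fit: with each line's 6 arrays fitted alone, 1116 probe sets were called higher and 832 lower in dnHIF1a against 1308 and 1030 in WT. Adjusted for the level of the erythrocyte genes the order turned, with 830 and 596 in dnHIF1a against 481 and 202 in WT. That level separated the WT groups and overlapped in dnHIF1a, so the adjustment also takes up amputation in WT. Of the 513 genes higher in dnHIF1a, 329 were also higher in WT, which is 64.1% of the dnHIF1a and 32.0% of the WT list, and 5 were lower there. In those shared 329 the median rise was 0.66 in dnHIF1a and 0.78 in WT. Of the 451 genes lower in dnHIF1a, 246 were also lower in WT, 54.5% of the dnHIF1a and 19.3% of the WT list, and 8 were higher there. Their medians were -0.41 and -0.46. A further 179 higher and 197 lower genes were called in dnHIF1a and not in WT, but the difference of the responses was itself called in 24 and 19 of these. For the others the lines were not shown to differ.

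The difference of the responses, dnHIF1a minus WT, was called in 228 genes (2.59%), 87 higher (0.989%) and 141 lower (1.6%). Of all probe sets 2.24% were called, 0.884% higher and 1.35% lower. The largest class was 81 genes that rose in WT, were not called in dnHIF1a and had a lower response there, followed by 54 that fell in WT and were not called in dnHIF1a. In 32 genes that rose in both lines the rise was smaller in dnHIF1a, and in 2 it was larger. postnb is one of the 32, with 4.42 ± 0.23 in WT against 1.82 ± 0.23 in dnHIF1a (difference -2.60 ± 0.33, adjusted p = 0.00342). Its WT arrays read 7.10, 7.46 and 6.45 before and 11.31, 11.25 and 11.71 after amputation on the same scale. The rise was also smaller in dnHIF1a for col1a2 (difference -1.36 ± 0.20, adjusted p = 0.00779), mmp2 (-1.51 ± 0.15, adjusted p = 0.00101) and aebp1b, a collagen-binding protein gene (-1.76 ± 0.18, adjusted p = 0.00101). The dnHIF1a call of aebp1b itself was lost without dnHIF1a amputated arrays 1 or 3 or dnHIF1a unamputated arrays 1 or 3 (adjusted p up to 0.0791). In the extracellular matrix list the difference was called lower in 7 of 33 genes and higher in 0. The mean of that list was 6.38 to 6.49 on unamputated dnHIF1a and 6.23 to 6.24 on unamputated WT arrays. After amputation it was 7.02 to 7.08 in dnHIF1a and 7.25 to 7.42 in WT. The epicardium and fibroblast list read 7.45 to 7.51 in dnHIF1a and 7.06 to 7.24 in WT before amputation. Afterwards it read 7.91 to 7.97 in dnHIF1a and 7.75 to 7.96 in WT. 

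Genes that moved in opposite directions in the lines were few: 5 rose in dnHIF1a and fell in WT, and 8 did the reverse, all with the difference called. odc1, the gene of the polyamine synthesis enzyme ornithine decarboxylase, read 5.97, 6.23 and 5.77 and then 7.55, 6.82 and 7.02 in dnHIF1a (1.14 ± 0.27, adjusted p = 0.0194) and 7.44, 7.15 and 6.18 and then 5.60, 5.67 and 5.91 in WT (-1.20 ± 0.27, adjusted p = 0.00761). Its difference was 2.34 ± 0.38, adjusted p = 0.0114, although its dnHIF1a call was lost without dnHIF1a amputated array 1 or dnHIF1a unamputated arrays 1 or 3 (adjusted p up to 0.0863). ccng2 fell in dnHIF1a and rose by 1.17 ± 0.22 in WT, from 7.55, 7.53 and 8.32 to 8.91, 8.81 and 9.20 (difference -2.26 ± 0.31, adjusted p = 0.0051). arrdc2 rose by 0.82 ± 0.18 in WT (difference -2.11 ± 0.26, adjusted p = 0.00335), on 1 of its 2 probe sets. socs3b was not called in WT (-0.56 ± 0.34, adjusted p = 0.258), and its difference (2.18 ± 0.48, adjusted p = 0.0362) was lost without WT amputated arrays 1, 2 or 3, dnHIF1a amputated arrays 1, 2 or 3 or dnHIF1a unamputated arrays 1 or 2 (adjusted p up to 0.0903).

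**Figure D5:**
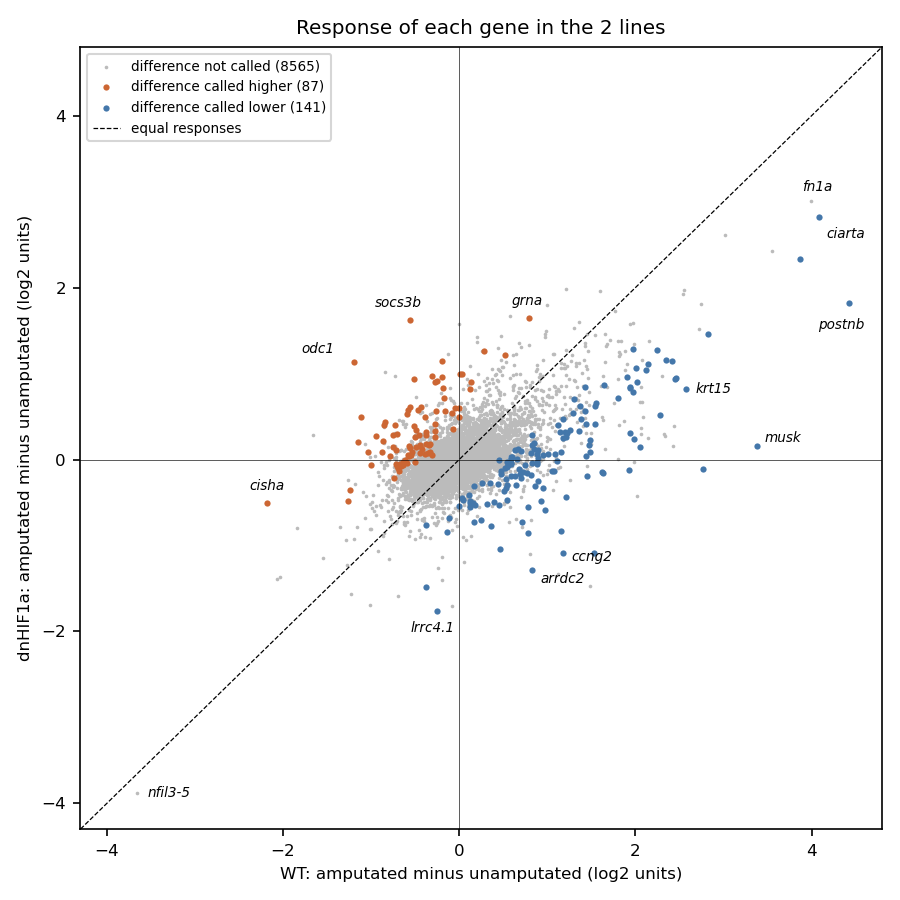
Difference after amputation in dnHIF1a (y axis, log2 units) against that in WT (x axis, log2 units) for 8793 genes. Each point is a gene, coloured where the difference of the responses was called higher (87) or lower (141) in dnHIF1a, and the dashed line marks equal responses. postnb lies far below the line (4.42 in WT, 1.82 in dnHIF1a), nfil3-5 lies close to it, and odc1, ccng2 and arrdc2 have opposite signs in the lines.

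The calls of the difference of the responses depended on whether the level of the erythrocyte genes was in the fit. With the erythrocyte list mean as a covariate, the difference was called in 6 probe sets higher and 15 lower, against 137 and 210 without it, while the dnHIF1a response itself had 830 higher and 596 lower calls, 790 and 561 of them also called without it. Because that mean separated the WT groups and not the dnHIF1a groups, the covariate also takes up amputation in WT, and its part in the difference was not tested. The differences of postnb (-2.23, adjusted p = 0.0563), col1a2 (-1.10, adjusted p = 0.104) and odc1 (2.70, adjusted p = 0.0563) kept their direction with the covariate and were not called.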

How the data were processed

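Heart RNA was measured on 12 arrays, 3 in each of 4 groups. Per the labels' protocols, 200 ng of total RNA extracted with Trizol was amplified with a sense-target labelling kit and marked with biotin. The authors deposited 1 log2 value for each probe set and array. RMA and limma are named in the submitters' processing notes, which give neither versions nor steps. The values were used as deposited, and the number of arrays limits the precision. Of 15617 probe sets 115 controls were left out. The platform table gives 10795 of the other 15502 a single gene, 135 several and 4572 none, and 10711 were matched to RefSeq. limma 3.58.1 in R 4.3.3 fitted a mean per group to all 12 arrays (8 residual and 4.46 prior degrees of freedom), with two-sided moderated tests.

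Named genes were the 16 largest called, non-overlapping differences per direction with means of at least 4 (no clone symbols), up to 3 called members per direction and 2 high-level members of each of 51 lists, up to 10 per direction for the difference (at least 1 line non-overlapping), and fixed genes. Members and lists were chosen with earlier results of these data known, and lists were given no test. The shares of members called, set beside the 11% of all genes, describe lists chosen in this way and are no independent evidence. Arrays sharing a number did not deviate together (correlations -0.191 to 0.0635), so numbers were not used as pairs. No pair of arrays shared more than 2.87% of its values exactly. The alternatives were other normalizations, filters, priors, array weights, a fold cutoff, the line's own arrays, an erythrocyte covariate, a replicate block and leaving out single arrays. The procedure was also run on simulated data with independent noise for each probe set and array. Those data hold no effect shared by the probe sets of an array, so that run does not bear on such effects here. Promoter sequences and probe coordinates were not used here.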

Additional observations from a re-analysis of the deposited data

Results flagged for a closer look

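The response to amputation differed between the lines, by limma's test of the difference itself, in 46 of the 247 named genes. Of these, 17 had a higher and 29 a lower value in dnHIF1a. Some of the 247 were named because of this same test, so their share does not measure how often the lines differ. Over all 8793 genes the difference was called in 228 (2.59%). Values are the dnHIF1a response minus the WT response in log2 units. Genes that rose in both lines and less in dnHIF1a were postnb (-2.60), aebp1b (-1.76), krt15 (-1.76), tfa (-1.54), mmp2 (-1.51), col1a2 (-1.36), col1a1a (-1.27), ciarta (-1.26), anxa1a (-1.09), col5a2a (-1.02), mmp14a (-0.97), mmp14b (-0.94) and krt94 (-0.72). Both lines rose, and dnHIF1a more, in per2 (0.69) and grna (0.86). A rise was called in WT alone, with a lower dnHIF1a response, for musk (-3.23), ddit4 (-2.62), ifi44f1 (-2.05), tppp3 (-1.99), zdhhc2 (-1.90), nt5dc2 (-1.80), nfil3-6 (-1.76) and bnip3lb (-0.65). A fall in dnHIF1a stood against a rise in WT for ccng2 (-2.26), arrdc2 (-2.11), igfbp2a (-1.44), fbxo32 (-1.34) and rbp4 (-0.88). The fall was called in dnHIF1a alone for lrrc4.1 (-1.51), glula (-1.50) and stc2a (-1.11). The rise was called in dnHIF1a alone for mef2aa (0.60), pgam1a (0.69), itga5 (0.98), aldocb (1.01), ldhbb (1.16), phlda3 (1.28), ywhag2 (1.35), pprc1 (1.45) and socs3b (2.18). A rise in dnHIF1a stood against a fall in WT for filip1b (1.28) and odc1 (2.34). A fall was called in WT alone, with a higher dnHIF1a response, for irx5a (1.25), psmb12 (1.35), psmb8a (1.60) and cisha (1.67). The call was lost without at least 1 single array in bnip3lb, cisha, ddit4, ifi44f1, igfbp2a, irx5a, ldhbb, mef2aa, musk, nfil3-6, nt5dc2, per2, pgam1a, pprc1, psmb12, socs3b, tppp3, ywhag2 and zdhhc2. The dnHIF1a call itself was lost without at least 1 single array in aebp1b (adjusted p up to 0.0791), fbxo32 (0.133), filip1b (0.127), igfbp2a (0.101), mef2aa (0.163), odc1 (0.0863) and pgam1a (0.0991). With the erythrocyte covariate 39 of the 46 differences were no longer called, and aebp1b, anxa1a, fbxo32, krt15, mmp2, psmb12 and psmb8a were. With the replicate number as a block 11 were no longer called.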

How the results depend on the processing

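Counts of called probe sets are given as higher and lower. In the dnHIF1a response (877 and 634) they ran from 585 to 1028 and 318 to 746 when single arrays were left out. Array weights gave 1017 lower, a fold cutoff of 1.5 gave 412 and 118, and the replicate number as a block gave 704 and 412. In the difference of the responses (137 and 210) leaving out single arrays gave 52 to 262 and 95 to 328. The replicate block gave 52 and 117 there, and the erythrocyte covariate 6 and 15. The lowest and highest of these counts came without unamputated dnHIF1a array 2 and unamputated WT array 3 (52 and 262) and without amputated dnHIF1a array 1 and unamputated WT array 3 (95 and 328). In the WT response (1702 and 1830) the covariate gave 481 and 202, a fold cutoff of 1.5 gave 823 and 291, and the 6 WT arrays alone gave 1030 lower. The cause of these moves was not tested. No direction of a called named gene reversed under any alternative run. Median centring and a repeated quantile normalization left the median dnHIF1a difference over all probe sets between -0.013 and -0.020. Under the block, 30 of 247 named genes lost their dnHIF1a call and 1 gained it, and the shared numbers do not pair the arrays. The values carry no measure of background, which limits what can be said of low signals.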
